A study of Mus musculus with 6 samples.

Results

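The immediate early genes are switched on within minutes of a growth factor, cytokine, mechanical or stress signal, without the need for new protein. Kinase cascades phosphorylate factors already bound at their promoters, such as SRF with its ETS partners and CREB, and the short-lived transcripts that follow encode mostly transcription factors. In tendon, *Egr1* is known as a regulator of matrix genes and as a factor that responds to mechanical load. The 10 immediate early genes described here were taken as a list of gene symbols, namely the AP-1 subunits *Fos*, *Fosb*, *Jun* and *Junb*, the related factor *Atf3*, the zinc finger factors *Egr1* and *Egr3*, the orphan nuclear receptor *Nr4a1*, the phosphatase *Dusp1* and *Ier2*. All 10 were found among the 18099 genes of the table, and all 10 passed the filter on low counts, which left 14261 genes to be tested.

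RNA sequencing was carried out on tendon tissue of neonatal mice after Achilles tendon transection, in 3 *LysM-Cre; Ampkα1fl/fl* mice and 3 control mice. The controls were littermates that carried the floxed *Ampkα1* alleles without Cre, and the tissue was taken at a single time after the operation. Cre was driven by the lysozyme M locus. This locus is active in the myeloid lineage, but the RNA was that of whole repair tissue, so that fewer cells of a type and less RNA per cell cannot be told apart. Neither the sex nor the exact age of each mouse is given in the labels. Below, the groups are called LysM-Cre and control.

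Reads assigned to genes came to between 18076812 and 19479895 per library. The tissue label was borne out by the tendon markers, with 1674 CPM (counts scaled to library size) of *Tnmd* and 106 CPM of *Scx* on average in the control group. *Lyz2*, at the locus that carries Cre, was between 390 and 425 CPM in the controls and between 0.432 and 0.811 CPM in the LysM-Cre mice. *Prkaa1*, which encodes AMPKα1, overlapped between the groups, with 37.6 to 39.2 CPM against 32.6 to 40.6 CPM. Of the genes tested, edgeR called 128 between the groups at an adjusted p under 0.05 (0.898%). Other cell types differed among the libraries. The summed level of 31 skeletal muscle markers was 341, 977 and 5076 CPM in the controls and 5454, 1762 and 14926 CPM in the LysM-Cre mice, with all 31 genes estimated higher in the LysM-Cre group and 0 called by edgeR or DESeq2 or at an unadjusted p under 0.05. For 9 erythroid genes found in the table the range was 1998 to 2974 CPM against 676 to 983 CPM. Of the 7 erythroid genes tested, 6 were called lower by edgeR (*Hba-a1*, *Hba-a2*, *Hbb-bs*, *Hbb-bt*, *Alas2* and *Slc4a1*), and 1 with mice blocked by replicate number. For 13 macrophage markers the range was 1195 to 1239 CPM against 773 to 994 CPM. Of these, 0 were called by edgeR, 4 by DESeq2, all lower, and 9 had an unadjusted p under 0.05, 8 lower and 1 higher. For 9 endothelial markers the range was 871 to 939 CPM against 790 to 825 CPM. Of these, 0 were called by edgeR, 2 by DESeq2 and 3 had an unadjusted p under 0.05, all lower. Over all genes tested, DESeq2 called 4.67% and 14.5% had an unadjusted p under 0.05. The 10 neutrophil markers summed to between 11 and 44.9 CPM over all libraries and the 8 keratinocyte markers to between 3.39 and 82.6 CPM. Of these, 6 neutrophil and 6 keratinocyte markers were tested, with 0 called in either list by edgeR or DESeq2 and 0 at an unadjusted p under 0.05. All 6 tested neutrophil markers were estimated higher in the LysM-Cre group (median log2 fold change 0.74, smallest adjusted p = 0.404 by edgeR), and 3 of the 6 keratinocyte markers were. Among 10 tendon fibroblast markers, *Dcn* was the 1 gene called by edgeR. The 4 Y-linked genes summed to between 41.7 and 61.2 CPM in the controls and between 89.1 and 136 CPM in the LysM-Cre mice, with 0 called by edgeR, 3 in its blocked fit, 4 by DESeq2 and 4 at an unadjusted p under 0.05. The part of these differences in the results below was not tested, other than where values with a muscle score (the mean log2 CPM of the 31 markers) as covariate are given.

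Promoter sequences are shown first, because the members are grouped as targets of shared signals. RefSeq promoter windows of GRCm38.p6, from 250 bases before a start site to 50 bases after it, with 1 start for each gene, were matched for 7 of the 10 genes. For *Nr4a1* and *Fosb*, which have several transcripts, that start lies inside the span of the gene given below and not at its outer end. Windows of *Egr1*, *Egr3* and *Ier2* were not searched, so the motif counts below do not cover these genes. The core of the cyclic AMP response element, TGACG on either strand (CGTCA on the other), to which CREB and ATF factors bind, was present in 6 of the 7 windows, against 20.8% of 32817 promoter windows of the same length. The window of *Jun* was the 1 without it. *Nr4a1* held 4 such matches, *Dusp1* 3, of which 2 overlap, and *Fos* 2. Those of *Fos* began 129 and 66 bases before the start, and that of *Junb* 106 bases before it. TATAAA on either strand was found in *Fos*, 33 bases before the start, and in *Junb*, at the annotated start itself (13.6% of all windows). The AP-1 site, TGAGTCA or its reverse complement TGACTCA, was found in 0 of the 7 windows (5.2% of all), and the CArG box, bound by SRF, in 0 of the 7 (1.63% of all). These matches describe the letters in the windows only, and sites more than 250 bases before a start were not searched. The 4 windows below are shown for the number of matches they hold, from 1 in *Junb* to 4 in *Nr4a1*, with TGACG or CGTCA in capitals. They lie at chr12:85473640-85473939 on the plus strand for *Fos*, chr17:26508423-26508722 on the minus strand for *Dusp1*, chr8:84978699-84978998 on the minus strand for *Junb* and chr15:101266596-101266895 on the plus strand for *Nr4a1*.
Fos: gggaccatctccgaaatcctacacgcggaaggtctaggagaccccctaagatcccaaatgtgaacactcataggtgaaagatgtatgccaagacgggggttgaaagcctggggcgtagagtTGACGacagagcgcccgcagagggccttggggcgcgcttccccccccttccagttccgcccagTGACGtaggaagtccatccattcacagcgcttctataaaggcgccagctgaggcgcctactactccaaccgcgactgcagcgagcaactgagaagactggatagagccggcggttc
Dusp1: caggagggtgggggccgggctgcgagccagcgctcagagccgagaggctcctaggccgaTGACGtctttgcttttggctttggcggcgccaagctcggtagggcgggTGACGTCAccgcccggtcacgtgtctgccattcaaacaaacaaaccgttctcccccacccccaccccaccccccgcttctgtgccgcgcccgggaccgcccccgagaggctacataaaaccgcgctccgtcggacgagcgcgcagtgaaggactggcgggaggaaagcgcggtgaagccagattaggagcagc
Junb: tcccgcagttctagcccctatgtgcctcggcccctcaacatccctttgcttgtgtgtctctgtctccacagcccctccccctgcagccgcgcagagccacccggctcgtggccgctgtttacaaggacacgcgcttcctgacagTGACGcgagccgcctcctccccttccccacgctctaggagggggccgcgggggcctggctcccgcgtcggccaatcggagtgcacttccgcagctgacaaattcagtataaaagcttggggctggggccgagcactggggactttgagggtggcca
Nr4a1: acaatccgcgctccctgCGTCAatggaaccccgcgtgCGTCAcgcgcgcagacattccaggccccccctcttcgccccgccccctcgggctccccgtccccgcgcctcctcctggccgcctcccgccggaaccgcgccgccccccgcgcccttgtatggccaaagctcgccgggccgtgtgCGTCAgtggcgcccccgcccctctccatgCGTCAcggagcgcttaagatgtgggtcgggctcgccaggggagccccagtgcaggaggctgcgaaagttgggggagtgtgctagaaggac

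The comparison between the groups asks whether the *LysM-Cre; Ampkα1fl/fl* genotype goes with another level of these genes in the injured tendon. This genotype brings together the deletion of *Ampkα1*, the presence of Cre and the near absence of *Lyz2* transcripts. These, and the higher Y-linked levels given above, cannot be told apart here. None of the 10 genes was called by edgeR at the adjusted threshold of 0.05 (0 of 10, beside 0.898% of all genes tested). This share of all genes was made up of 0.33% called higher and 0.568% called lower. No member reached an unadjusted p under 0.05 (0 of 10, beside 14.5% of all genes, 5.97% higher and 8.55% lower), and DESeq2 called 0 as well. Of the 10, 8 were estimated higher and 2 lower in the LysM-Cre group, where 49.4% of all genes were estimated higher. The median log2 fold change was 0.12, against 0.00 over all genes. The 95% intervals of the 10 fold changes lay between 0.69-fold and 1.70-fold of the control level. Changes within these bounds are left possible by the spread between mice, and the values do not show that the groups were alike.

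**Figure D1:**
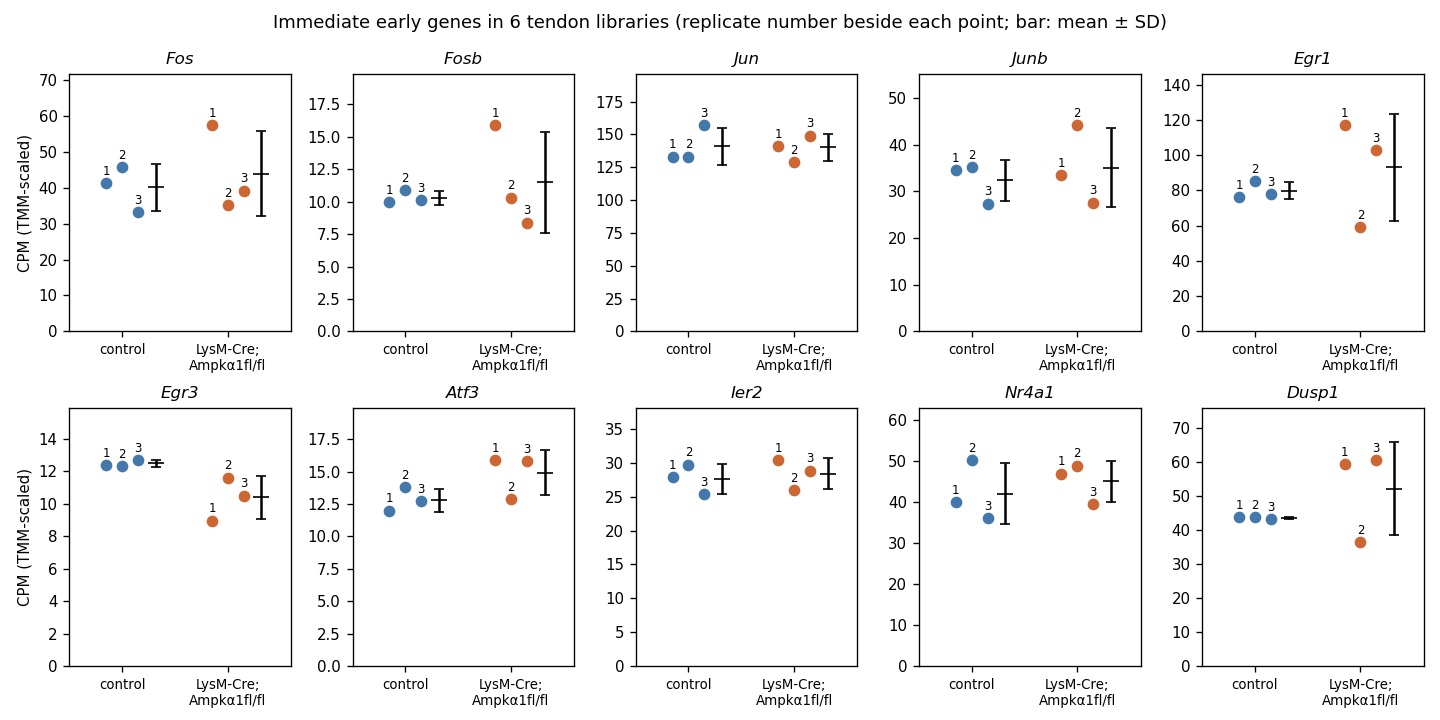
CPM (TMM-scaled, y axis from 0) of each immediate early gene in the 3 control and 3 LysM-Cre; Ampkα1fl/fl libraries, with the replicate number beside each point and the mean ± SD as a bar. The groups overlap in every panel but that of *Egr3*, and the LysM-Cre points of *Egr1*, *Dusp1* and *Fosb* are spread more widely than the control points.

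The AP-1 factor is a dimer of a FOS and a JUN protein, and FOS proteins cannot bind DNA without a partner. *Fos* (NCBI Gene 14281, chromosome 12, 85473890 to 85477274 of GRCm38.p6) was at 41.3, 45.8 and 33.1 CPM in the controls and at 57.4, 35.2 and 39.2 CPM in the LysM-Cre mice. LysM-Cre replicate 1 stood above all others and the remaining mice were mixed. The means were 40.1 ± 6.45 and 43.9 ± 11.9 CPM (SD, n = 3 each), a log2 fold change of 0.13 (SE 0.20, 95% interval -0.35 to 0.61, adjusted p = 0.828 by edgeR). *Fosb* (NCBI Gene 14282, chromosome 7, 19302696 to 19310118) showed the same high library, with 9.95, 10.9 and 10.1 CPM against 15.9, 10.3 and 8.38 CPM. Its control values were close together, and the LysM-Cre mice held both its highest and its lowest level. The log2 fold change was 0.16 (SE 0.23, adjusted p = 0.810 by edgeR). Of the 3 *Fosb* transcripts in the table, NM_008036 took 72.1% of the reads. It had 93.4, 144 and 127 estimated reads in the controls and 279, 122 and 116 in the LysM-Cre mice, so the high library was high in this transcript. Transcript NM_001347586 had only 25.5 reads in that library, against 34.7 to 69.5 in the other five. Reads of 1 gene are split between its transcripts by estimation, and these transcript values carry that error. Without LysM-Cre replicate 1, the log2 fold change was -0.11 for *Fos* and -0.14 for *Fosb* in edgeR, so the direction of both rested on that mouse.

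*Jun* (NCBI Gene 16476, chromosome 4, 95049036 to 95052222), the JUN subunit that forms the most active dimers with FOS, was at 133, 133 and 157 CPM in the controls and at 141, 129 and 149 CPM in the LysM-Cre mice. The groups covered nearly the same range, and in each group replicate 3 was the highest. The means were 141 ± 14.1 and 140 ± 9.93 CPM (SD, n = 3 each), a log2 fold change of -0.01 (SE 0.09, 95% interval -0.22 to 0.20, adjusted p = 0.971 by edgeR). *Junb* (NCBI Gene 16477, chromosome 8, 84976909 to 84978748), a weaker activator that can also oppose *Jun*, was at 34.5, 35.2 and 27.4 CPM against 33.5, 44.2 and 27.6 CPM. Here LysM-Cre replicate 2, the lowest of the LysM-Cre mice for *Fos*, was the highest of all, and replicate 3 was the lowest in each group. The log2 fold change of *Junb* was 0.12 (SE 0.18, adjusted p = 0.832 by edgeR), and 0.41 (adjusted p = 0.251 by edgeR) with the muscle score as covariate, within a range of adjusted p from 0.251 to 0.989 over the alternatives.

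*Atf3* (NCBI Gene 11910, chromosome 1, 191170296 to 191183333) encodes a stress-induced factor of the ATF family that pairs with JUN proteins and often represses. It was at 12.0, 13.8 and 12.7 CPM in the controls and at 15.9, 12.9 and 15.8 CPM in the LysM-Cre mice. LysM-Cre replicates 1 and 3 were above all controls, and replicate 2 lay among them. The means were 12.8 ± 0.888 and 14.9 ± 1.73 CPM (SD, n = 3 each), a log2 fold change of 0.21 (SE 0.12, 95% interval -0.06 to 0.49, adjusted p = 0.459 by edgeR). *Ier2* (NCBI Gene 15936, chromosome 8, 84661331 to 84662852) encodes a small nuclear protein and varied least from library to library, by 1.20-fold between the lowest and the highest. It was between 25.4 and 29.7 CPM in the controls and between 25.9 and 30.4 CPM in the LysM-Cre mice, a log2 fold change of 0.04 (SE 0.09, adjusted p = 0.901 by edgeR).

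*Egr1* (NCBI Gene 13653, chromosome 18, 34861207 to 34864956) was at 76.0, 85.2 and 78.0 CPM in the controls and at 117, 59.3 and 103 CPM in the LysM-Cre mice. The controls lay inside the span of the LysM-Cre mice, of which replicates 1 and 3 were above every control and replicate 2 below every control. The means were 79.7 ± 4.83 and 93.1 ± 30.2 CPM (SD, n = 3 each), a log2 fold change of 0.22 (SE 0.23, 95% interval -0.32 to 0.77, adjusted p = 0.717 by edgeR; exact permutation test, two-sided, p = 0.6). Between its lowest and its highest library *Egr1* varied 1.98-fold, the widest of the 10. With the muscle score as covariate its log2 fold change was -0.01 (adjusted p = 0.993 by edgeR). Without LysM-Cre replicate 2 it was 0.46 (adjusted p = 0.0611 by edgeR). These are the ends of its range over the alternatives. *Egr3* (NCBI Gene 13655, chromosome 14, 70077317 to 70082613), a relative with the same type of zinc fingers, was estimated lower. It was at 12.4, 12.3 and 12.7 CPM in the controls and at 8.97, 11.6 and 10.5 CPM in the LysM-Cre mice. It was the only member whose groups did not overlap (1 of 10, where 20.4% of all genes tested did not overlap, and 11.4% did so with the LysM-Cre group lower). The means were 12.5 ± 0.217 and 10.4 ± 1.34 CPM (SD, n = 3 each), a log2 fold change of -0.27 (SE 0.12, 95% interval -0.54 to 0.01, adjusted p = 0.361 by edgeR). In a two-sided exact permutation test p was 0.1, the smallest that 3 mice against 3 allow. Of 4 *Egr3* transcripts in the table, NM_018781 took 53.7% of the reads. Single transcripts moved far more than the gene did, as NM_001289927 had 114, 74.6 and 10.2 estimated reads in the controls, between which the gene was even. In the alternatives its log2 fold change stayed between -0.36 and -0.17, with edgeR, DESeq2 and limma adjusted p from 0.172 to 0.644.

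EGR proteins are held in check by the co-repressors NAB1 and NAB2, whose genes are themselves EGR targets. *Nab1* was at 62.6 ± 4.19 CPM in the controls and at 55.5 ± 3.42 CPM in the LysM-Cre mice (SD, n = 3 each), with a log2 fold change of -0.17 (adjusted p = 0.336 by edgeR). *Nab2* was at 48.8, 41.2 and 51.9 CPM against 37.9, 54.5 and 40.3 CPM, with a log2 fold change of -0.10 (adjusted p = 0.833 by edgeR). Within the LysM-Cre group *Nab2* was highest in replicate 2, the mouse in which *Egr1* was lowest.

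*Dusp1* (NCBI Gene 19252, chromosome 17, 26505591 to 26508472) encodes a phosphatase that switches off the p38 and JNK kinases and so ends the signal that induces these genes. It was at 43.9, 43.8 and 43.3 CPM in the controls and at 59.5, 36.6 and 60.7 CPM in the LysM-Cre mice. The controls differed by less than 1 CPM, and as for *Egr1* the LysM-Cre mice lay on both sides of them, replicates 1 and 3 above and replicate 2 below. The means were 43.7 ± 0.355 and 52.3 ± 13.6 CPM (SD, n = 3 each), a log2 fold change of 0.26 (SE 0.18, 95% interval -0.17 to 0.69, adjusted p = 0.578 by edgeR). *Dusp1* was the member that an alternative brought past the threshold. Without LysM-Cre replicate 2, its log2 fold change was 0.46 (adjusted p = 0.026 by edgeR, where 1.91% of all genes were called), and with the muscle score as covariate it was 0.05 (adjusted p = 0.964 by edgeR). *Nr4a1* (NCBI Gene 15370, chromosome 15, 101253902 to 101274795), an orphan nuclear receptor induced in macrophages and in stretched or stimulated mesenchymal cells, was at 39.9, 50.2 and 36.0 CPM against 46.9, 48.8 and 39.4 CPM. The groups overlapped over most of their range, and replicate 3 was the lowest in each. The log2 fold change was 0.10 (SE 0.14, adjusted p = 0.804 by edgeR). Of 7 *Nr4a1* transcripts in the table, NM_010444 took 83.1% of the reads.

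**Figure D2:**
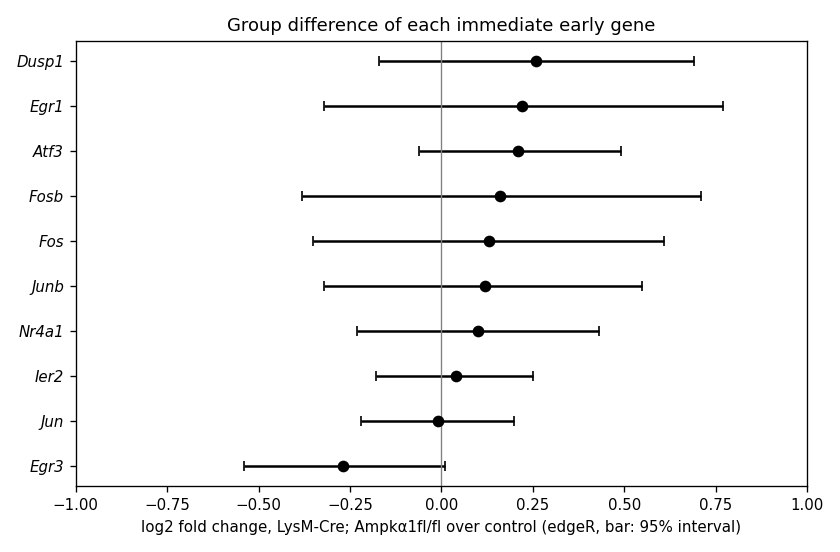
Log2 fold change of each gene, LysM-Cre; Ampkα1fl/fl over control, from edgeR, with its 95% interval as a bar. Every interval includes 0, and that of *Egr3*, from -0.54 to 0.01, reaches it only at its upper end.

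The levels of most of these genes were spread more widely among the LysM-Cre mice than among the controls. The standard deviation of log2(CPM + 0.5) was larger in the LysM-Cre group for 8 of the 10 genes, and for 58.7% of all genes tested. Its median over the 10 genes was 0.10 in the controls and 0.26 in the LysM-Cre group, against 0.10 and 0.13 over all genes. *Egr1* (0.09 against 0.52), *Fosb* (0.07 against 0.45) and *Dusp1* (0.01 against 0.41) showed the widest gap. *Jun* (0.14 against 0.10) and *Nr4a1* (0.24 against 0.16) were the genes with the smaller spread in the LysM-Cre group. With 3 mice in each group these are descriptions, and no test of the spread was made. LysM-Cre replicate 2, in which *Egr1* and *Dusp1* were lowest, also had the lowest summed skeletal muscle level of its group (1762 CPM, against 5454 and 14926 CPM). In the controls the muscle level was 341, 977 and 5076 CPM, beside 76.0, 85.2 and 78.0 CPM of *Egr1* and 43.9, 43.8 and 43.3 CPM of *Dusp1*. LysM-Cre replicate 2 was thus above control replicates 1 and 2 in muscle level, and below every control in both genes. Beyond the covariate, the part of the muscle level in the spread was not tested. LysM-Cre replicate 1 had the highest level of 5 of the 10 genes and LysM-Cre replicate 2 the lowest of 3, while control replicate 3 had the lowest of 4. Together the 10 genes took between 0.0424% (LysM-Cre replicate 2) and 0.0519% (LysM-Cre replicate 1) of a library's reads assigned to genes. The control libraries lay between 0.0432% and 0.0463%.

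**Figure D3:**
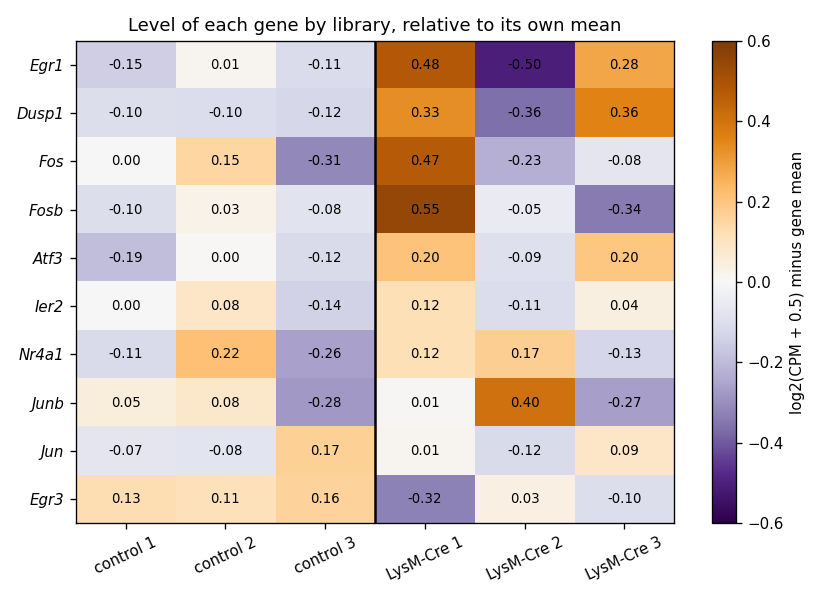
Level of each gene in each library as log2(CPM + 0.5) minus the gene's mean over the 6 libraries, with the value in each cell and the groups parted by a line. *Egr1*, *Dusp1*, *Fos* and *Fosb* are high in LysM-Cre replicate 1, *Egr1* and *Dusp1* are also high in LysM-Cre replicate 3 and low in LysM-Cre replicate 2, and *Junb* is high in LysM-Cre replicate 2. The order of the rows was chosen after the values were seen.

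Levels of different genes are compared here as TPM, which is scaled to transcript length as well as to library size. In the controls *Jun* was the most abundant, at 98.0 TPM on average (89.6 to 110), followed by *Egr1* at 57.6 TPM (55.8 to 60.0) and *Dusp1* at 53.6 TPM (52.5 to 54.5), whose ranges did not touch. *Ier2* (45.8 TPM), *Fos* (44.5 TPM), *Junb* (42.3 TPM) and *Nr4a1* (38.2 TPM) followed with ranges that overlapped, so these neighbours did not differ beyond their spread. *Atf3* (15.4 TPM), *Egr3* (6.84 TPM) and *Fosb* (5.89 to 6.19 TPM) were the least abundant and lay apart from each other. In the LysM-Cre group the order was the same but for the pairs *Fos* and *Ier2*, and *Fosb* and *Egr3*, which changed places. There *Egr1* spanned 44.5 to 84.5 TPM and overlapped *Dusp1*, *Fos*, *Ier2*, *Junb* and *Nr4a1*. *Dusp1*, with 46.7 to 72.9 TPM, overlapped the same genes but for *Nr4a1*, which reached 46.2 TPM. *Fosb* (4.76 to 9.13 TPM) and *Egr3* (4.86 to 6.60 TPM) did not differ beyond their spread.

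The genes closest to the members in kind were taken from a list of 66 other immediate early genes, of which 61 were tested. *Fosl1*, *Egr4*, *Areg*, *Cxcl1* and *Il6* were too low. *Klf9* and *Errfi1* also stand in the glucocorticoid list below. Of the 61, 1 was called in edgeR, as higher, and 9 had an unadjusted p under 0.05, 7 higher and 2 lower. The groups did not overlap in 12 of the 61, and the median log2 fold change was 0.06, so the list as a whole was near the background of 14.5% at an unadjusted p under 0.05 and 20.4% without overlap. The called gene was *Nr4a3*, a receptor of the same family as *Nr4a1*. It had 97, 102 and 101 reads in the controls and 225, 235 and 178 reads in the LysM-Cre mice. In CPM these were 5.13, 5.57 and 5.54 against 11.7, 12.7 and 9.62, so each LysM-Cre mouse was above every control. *Nr4a3* rose 2.10-fold, with a log2 fold change of 1.07 (SE 0.14, 95% interval 0.74 to 1.39, adjusted p = 0.0298 by edgeR; exact permutation test, two-sided, p = 0.1). In the fit with the replicate block its edgeR adjusted p was 0.0634, and over all alternatives the adjusted p lay between 1.25e-05 and 0.155 while the log2 fold change stayed between 0.89 and 1.17. It was not called when any of the 3 controls or LysM-Cre replicate 1 was left out. The remaining family member *Nr4a2* was at 41.6, 35.8 and 41.2 CPM against 48.7, 66.9 and 43.9 CPM, a log2 fold change of 0.43 (adjusted p = 0.286 by edgeR) without overlap of the groups.

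Among the relatives of the AP-1 subunits, *Jund*, a JUN gene that is expressed without induction, was at 181, 200 and 189 CPM against 219, 211 and 222 CPM. *Fosl2*, which encodes a longer-lived FOS protein, was at 128, 121 and 116 CPM against 141, 146 and 133 CPM. In both genes every LysM-Cre mouse was above every control by a small amount, with log2 fold changes of 0.19 and 0.20 (edgeR adjusted p = 0.186 and 0.192). DESeq2 called *Jund* (adjusted p = 0.045), *Btg1* and *Nr4a3* among the 61 genes, where it called 4.67% of all genes. *Jund*, *Fosl2* and *Nr4a2* are named because of their kinship with the members, and were chosen after their values were seen. *Egr2*, another gene of the EGR family, was at 11.2, 8.85 and 22.9 CPM against 20.4, 16.5 and 10.1 CPM, with widely overlapping groups (adjusted p = 0.925 by edgeR). It was chosen in the same way. The largest changes in the list beside *Nr4a3* were estimated for *Rgs1* (log2 fold change 0.78, adjusted p = 0.578 by edgeR) and *Dusp4* (-0.47, adjusted p = 0.514 by edgeR), both at few reads.

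**Figure D4:**
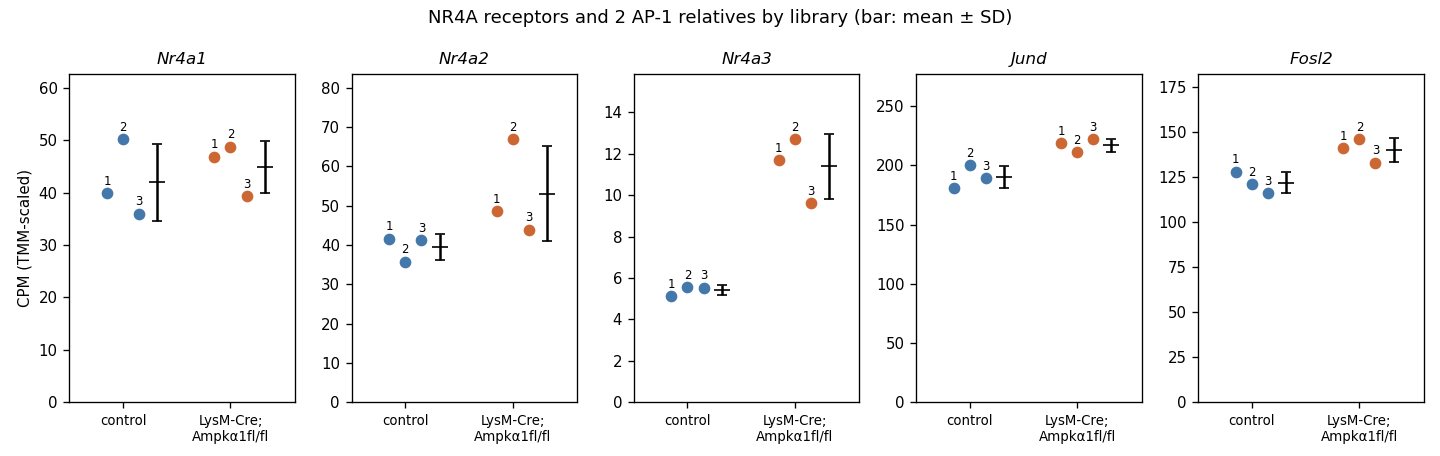
CPM (TMM-scaled, y axis from 0) of the NR4A receptors and of *Jund* and *Fosl2* in each library, with replicate numbers and the mean ± SD as a bar. The groups overlap for *Nr4a1*, and for the other four genes all LysM-Cre points are above all control points, at 5.13 to 5.57 against 9.62 to 12.7 CPM in *Nr4a3*.

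Upstream of these genes stand growth factor receptors, the RAS, RAF and MAP kinases and the factors SRF, ELK and CREB. Of 45 such genes, all tested, 0 were called in edgeR (smallest adjusted p = 0.269) and 0 by DESeq2. An unadjusted p under 0.05 was reached by 6 (4 higher and 2 lower), beside 14.5% of all genes tested. The median log2 fold change was -0.02. The log2 fold changes of the 45 genes ran from -0.22 to 0.31. The largest estimate was that of *Pdgfrb*, a receptor of platelet-derived growth factor, at 225, 236 and 216 CPM against 327, 234 and 279 CPM (adjusted p = 0.299 by edgeR). *Crem*, which encodes activators and inducible repressors of cyclic AMP response elements, was at 13.2, 14.8 and 12.4 CPM against 15.9, 16.5 and 15.8 CPM (log2 fold change 0.26, adjusted p = 0.269 by edgeR). Its groups did not overlap, as in 20.4% of all genes tested, and its difference did not pass the test.

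Downstream, *Egr1* is known to act on tendon matrix genes, of which 29 were listed together with tendon factors and TGF-β genes, and all were tested. In edgeR 1 was called higher and 1 lower, and the median log2 fold change was 0.00 with 15 estimated higher and 14 lower. An unadjusted p under 0.05 was reached by 11 of the 29, 7 higher and 4 lower (14.5% of all genes), and DESeq2 called 10, 6 higher and 4 lower (4.67% of all genes). *Dcn*, the small proteoglycan decorin that binds collagen fibrils, fell from 3017 ± 137 to 2204 ± 90.7 CPM (SD, n = 3 each), a log2 fold change of -0.45 (SE 0.06, adjusted p = 0.0301 by edgeR, and 0.0611 in the replicate block fit). *Tgfb3*, a TGF-β ligand, rose from 346 ± 9.27 to 461 ± 30.3 CPM (SD, n = 3 each), a log2 fold change of 0.41 (SE 0.07, adjusted p = 0.0467 by edgeR, and 0.0953 in the block fit). Leaving out single mice raised the adjusted p of both above 0.05 for every mouse but LysM-Cre replicate 2, with edgeR adjusted p up to 0.155 for *Dcn* and 0.217 for *Tgfb3*. The muscle covariate also raised it, to 0.096 and 0.138. *Col1a1* (log2 fold change 0.00, adjusted p = 0.988 by edgeR) and *Tnmd* (0.18, adjusted p = 0.489 by edgeR), named after their values were seen because they are main tendon genes, did not pass. In the LysM-Cre mice *Dcn* was at 2247, 2264 and 2099 CPM, and *Egr1* at 117, 59.3 and 103 CPM. Whether the level of *Dcn* follows that of *Egr1* was not tested. Of 17 genes that respond to AP-1, 16 were tested and 0 were called in edgeR (smallest adjusted p = 0.117, with 3 under 0.05 unadjusted, 3 called by DESeq2). *Spp1*, which encodes osteopontin, had a log2 fold change of 0.52 (adjusted p = 0.194 by edgeR), and *Mmp9*, a gelatinase, of -0.63 (adjusted p = 0.628 by edgeR).

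*Dusp1* and *Per1* are also targets of the glucocorticoid receptor, so a list of 14 glucocorticoid responsive genes was set beside them. All 14 were tested, 13 were estimated higher in the LysM-Cre group, 9 had an unadjusted p under 0.05 (8 higher and 1 lower), and the median log2 fold change was 0.37. Over all genes tested, 49.4% were estimated higher and 14.5% had an unadjusted p under 0.05. DESeq2 called 4 of the 14 (4.67% of all genes), and edgeR called 1 (0.898% of all genes). This was *Angptl4*, which encodes an inhibitor of lipoprotein lipase and responds to fasting, hypoxia and glucocorticoids. It rose from 53.8, 55.1 and 60.6 CPM to 163, 97.1 and 120 CPM, a log2 fold change of 1.17 (SE 0.18, adjusted p = 0.045 by edgeR, and 0.0634 in the replicate block fit). Its adjusted p lay between 4.74e-10 and 0.209 over the alternatives, and it was not called without any of the 3 controls, LysM-Cre replicate 1 or LysM-Cre replicate 3, nor with the muscle covariate (0.117). Its highest and lowest LysM-Cre libraries were replicates 1 and 2, as for *Egr1*. *Pdk4*, a kinase that blocks pyruvate oxidation and is abundant in muscle, was at 2.65, 3.66 and 8.06 CPM against 24.3, 4.81 and 38.4 CPM (log2 fold change 2.23, adjusted p = 0.233 by edgeR). Within each group its order followed that of the skeletal muscle markers. *Zbtb16* was at 1.01, 1.04 and 2.30 CPM against 8.97, 2.97 and 4.22 CPM (log2 fold change 1.89, adjusted p = 0.159 by edgeR).

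**Figure D5:**
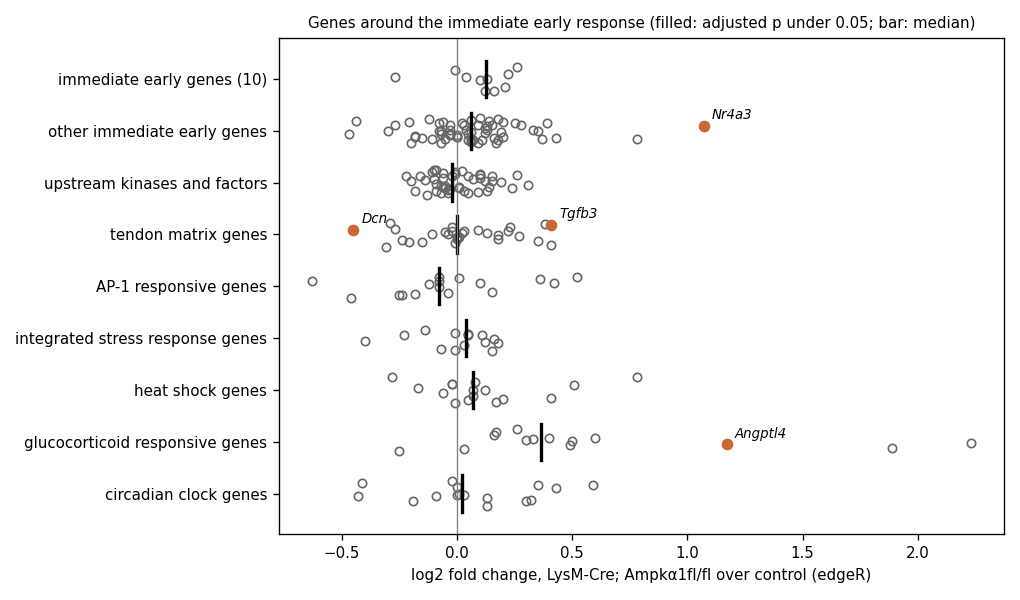
Log2 fold changes (LysM-Cre; Ampkα1fl/fl over control, edgeR) of the 10 immediate early genes and of the tested genes of 8 related lists, with 1 circle a gene, filled where the adjusted p is under 0.05, and the median of a list as a bar. The 10 genes lie between -0.27 and 0.26, *Nr4a3*, *Dcn*, *Tgfb3* and *Angptl4* are the filled points, and the median of the glucocorticoid responsive genes is 0.37.

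By root mean square difference of log2 CPM centred on its mean over the 6 libraries, the genes outside all lists with the course most like the median of the 10 were *Mfge8* (0.0281), *Galns* (0.0364) and *Mrpl24* (0.0364), out of 13965 genes compared. *Mfge8*, which encodes a secreted bridge for the uptake of dying cells, was at 263, 289 and 262 CPM in the controls and at 324, 260 and 275 CPM in the LysM-Cre mice. LysM-Cre replicate 1 was its highest library, as for the median of the members.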

How the data were processed

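RNA sequencing of 6 tendon libraries (BGISEQ) was analysed. Per the labels, the build was GRCm38.p6, and the aligner, counting tool and annotation release are not given in the sources used here. The authors deposited estimated counts for each of 65053 RefSeq transcripts, not normalized, and TPM values, already scaled by length and library. The table also holds 12 per-sample columns of other units and 8 of group averages, which no step used. Estimated counts were summed per gene and rounded, and 99.72% of 18099 NCBI Gene identifiers had a symbol in RefSeq. No other annotated gene overlapped any of the 10.

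Groups and replicate numbers came from the sample titles. The p-values measure the spread between these samples. The 14261 genes left by filterByExpr were tested with edgeR 4.0.16 under R 4.3.3 (TMM, quasi-likelihood F test, Benjamini-Hochberg, threshold 0.05), limma 3.58.1 and DESeq2 1.42.0 being alternatives. CPM values are scaled by TMM. Intervals are the estimate plus or minus its standard error times the quantile of the t distribution for a two-sided 95% interval. The exact permutation test used log2(CPM + 0.5). On simulated data for the comparison of the groups (14136 genes run, 200 changed by a log2 fold change of 1), 152 were recovered and 6.17% of calls were false. The 200 were drawn from genes that were not low in reads. Recovery of smaller changes, such as those estimated for the members, was not simulated.

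The main fit did not pair the libraries, and a fit blocked by replicate number was run as an alternative. The titles give the numbers but do not state that same-numbered mice are pairs. Deviations of same-numbered libraries from their group means had correlations over genes of 0.184, 0.118 and 0.31. Control replicates 1 and 2 correlated more with LysM-Cre replicates 2 (0.501) and 3 (0.127) than with their own number. The skeletal muscle score is the mean log2 CPM of 31 markers. Beside the 10 genes, the text names genes of 17 lists that were called, at most 3 with the largest change in a list, the 3 with the most similar course, and others marked as chosen after their values were seen. The members and lists were chosen with earlier results of these data known.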

Additional observations from a re-analysis of the deposited data

How the results depend on the processing

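The number of genes called was 684 with DESeq2, 47 with the replicate block, 73 with the muscle score as covariate, 69 with limma on log2(TPM + 0.5) and between 8 and 276 when 1 mouse was left out. Among the 10 immediate early genes, 0 were called under every alternative but leaving out LysM-Cre replicate 2, so that leaving out 1 mouse gave between 0 and 1. Of the other immediate early genes, 3 were called with DESeq2, 0 with the block, 0 with limma on TPM, and between 0 and 2 with 1 mouse left out. The median log2 fold change of the 10 genes was between 0.00 and 0.22 with 1 mouse left out, and 0.00 without LysM-Cre replicate 1. *Egr1* turned to -0.01 with the muscle score. In that fit the estimates of *Fos* (0.22), *Fosb* (0.23), *Jun* (-0.15), *Junb* (0.41), *Ier2* (0.05) and *Nr4a1* (0.26) were larger in size than in the main fit. Those of *Egr3* (-0.24), *Atf3* (0.11) and *Dusp1* (0.05), like that of *Egr1*, were smaller in size. With 1 mouse left out, the log2 fold change ran from -0.11 to 0.27 for *Fos*, from -0.14 to 0.35 for *Fosb*, from -0.06 to 0.07 for *Jun*, from -0.08 to 0.26 for *Junb* and from -0.02 to 0.10 for *Ier2*. The cause was not tested. Of 140 comparisons of a member with an alternative, 131 kept the direction and the side of the threshold, 8 turned direction and 1 passed the threshold. The block changed no call among the members. Where a library was left out, its group had 2 mice, and their spread was taken as common to both groups.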

Other observations

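Other stress programmes were read in the same libraries. Of 16 heat shock genes, 0 were called in edgeR (smallest adjusted p = 0.186) and 0 by DESeq2, with a median log2 fold change of 0.07. An unadjusted p under 0.05 was reached by 2, beside 14.5% of all genes tested. *Hspb1*, a small heat shock protein that muscle also makes, was at 19.4, 25.5 and 28.2 CPM in the controls and at 29.6, 28.2 and 67.7 CPM in the LysM-Cre mice (log2 fold change 0.78, adjusted p = 0.378 by edgeR), with its highest level in LysM-Cre replicate 3, the library with the most skeletal muscle transcripts. Of 14 genes of the integrated stress response, which shares *Atf3* as a target, 0 were called in edgeR (smallest adjusted p = 0.0923). Of these 14, 1 had an unadjusted p under 0.05 (14.5% of all genes tested) and 1 was called by DESeq2 (4.67% of all genes). *Atf5*, a factor of this response, was lower in each LysM-Cre mouse, at 33.7, 39.4 and 34.2 CPM against 27.5, 28.1 and 25.4 CPM (log2 fold change -0.40, adjusted p = 0.0923 by edgeR).

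Of 16 circadian clock genes, 0 were called in edgeR (smallest adjusted p = 0.0595, 3 by DESeq2), while 7 had an unadjusted p under 0.05, 5 higher and 2 lower, and the groups did not overlap in 9. Over all genes tested, 14.5% had an unadjusted p under 0.05, the groups did not overlap in 20.4%, and DESeq2 called 4.67%. *Npas2*, which encodes a partner of BMAL1, was at 25.9, 23.5 and 20.3 CPM in the controls and at 30.2, 32.2 and 31.3 CPM in the LysM-Cre mice (log2 fold change 0.43, adjusted p = 0.113 by edgeR). *Dbp*, a clock output gene, was at 16.0, 17.6 and 19.0 CPM against 13.6, 11.1 and 14.5 CPM (log2 fold change -0.43, adjusted p = 0.183 by edgeR). *Hlf*, a relative of *Dbp*, went the other way, at 9.21, 9.29 and 9.32 CPM against 13.6, 12.9 and 15.4 CPM (log2 fold change 0.59, adjusted p = 0.0595 by edgeR). The time of day of collection is not given in the labels, and its part in these values was not tested.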
